A study of Mus musculus with 19 samples.

Results

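The effect of a clusterin knock-in was read in the hippocampus of male mice that develop amyloid plaques. The libraries were chosen by tissue, sex and genotype in the sample labels: 5 males of genotype 5xFADHEMI:CLUh2kbKIHO against 5 males of genotype 5xFADHEMI, which is 10 of 19 libraries. All animals were 4 months old, and all 10 males, controls included, carried the hemizygous 5xFAD transgenes. These transgenes express mutant human APP and mutant human presenilin from the neuron-specific Thy1 promoter. The knock-in males were in addition homozygous for the allele named CLUh2kbKI. The labels do not give the sequence that this allele carries or replaces, nor the strain of the mice, and animals without the 5xFAD transgenes were not analysed here. RNA came from whole hippocampus, so that fewer cells of a type and less RNA per cell cannot be told apart.

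Clusterin (apolipoprotein J) is an extracellular chaperone that also carries lipids, is secreted in brain chiefly by astrocytes, and in humans carries common variants tied to Alzheimer's disease risk. It binds amyloid beta and is one of the ligands of the microglial receptor TREM2. TREM2 has no signalling motif of its own and works through the adaptor TYROBP, also called DAP12. In amyloid mice this pair is needed for microglia around plaques to switch from a homeostatic program to the disease-associated program, with more lysosomal, lipid and phagocytic genes.

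Each library came from 1 animal. Knock-in males had 20.09 ± 1.54 M (mega) counts (SD, n = 5; range 18.23 to 22 M) and 5xFAD males had 19.02 ± 1.05 M counts (SD, n = 5; range 17.28 to 20.01 M). Ddx3y, on the Y chromosome, exceeded Xist in 10 of 10 male libraries. The first principal component held 24.3% of the variance and had 2 control libraries, 5xFAD males 6 and 10, at its opposite ends. 5xFAD male 10 also had a mean of 6.24 log2 CPM over 12 nuclear and imprinted long noncoding RNAs, below the other 9 males at 6.84 to 7.88. CPM are counts scaled to library size after TMM normalization. Animal and library numbers of the 2 genotypes lie in separate ranges, so genotype and cohort cannot be told apart.

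The first question was whether the knock-in altered the level of clusterin mRNA. It did so by no amount that could be told from the spread between males. Clu, on chromosome 14, was abundant in both groups, at rank 91 of 16995 tested genes. In knock-in males 6 to 10 it stood at 788, 1050, 1100, 1110 and 733 CPM, and in 5xFAD males 6 to 10 at 860, 985, 987, 1140 and 882 CPM. The ranges overlapped, and knock-in males 6 and 10 were the lowest of all 10. The means were 956 ± 180 CPM against 971 ± 112 CPM (SD, n = 5 each). The log2 change was -0.02, with a 95% interval from -0.32 to 0.27 (edgeR, adjusted p = 0.996). An exact two-sided permutation test over 252 splits gave p = 0.786, where the smallest possible is 0.00794. Whether reads of the knock-in allele were assigned to the mouse gene was not tested. Without knock-in male 6, knock-in male 10 or 5xFAD male 9 the sign turned, to 0.04, 0.06 and 0.04, and with library size alone as the scale it was 0.01.

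App, the mouse gene for the amyloid precursor protein, stood at 3460 ± 444 CPM in knock-in males and 3410 ± 493 CPM in 5xFAD males (SD, n = 5 each), a log2 change of 0.02 (95% interval -0.25 to 0.30; adjusted p = 0.996 in edgeR). Whether transgene reads enter this count was not tested. Thy1, whose promoter drives the transgenes, had 2220, 2480, 2360, 2340 and 1810 CPM in knock-in males 6 to 10 and 1410, 1610, 1680, 2220 and 2150 CPM in 5xFAD males 6 to 10. The groups overlapped. Its log2 change was 0.31 (SE 0.14; adjusted p = 0.973 in edgeR; exact permutation p = 0.0635).

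Across all genes, none passed the test. The smallest adjusted p of edgeR's quasi-likelihood test was 0.308, with 0 of 16995 genes higher (0%) and 0 lower (0%) at an adjusted p of 0.05. At an unadjusted p of 0.05 there were 438 genes higher (2.58%) and 370 lower (2.18%), 4.75% together, close to the share that the threshold lets through when groups do not differ. The median log2 change of all genes was 0.01, and 51% of genes lay above 0. Groups without overlap were found at 91 genes higher (0.535%) and 90 lower (0.53%). limma-voom called 0 genes, with 812 at an unadjusted p of 0.05. DESeq2, an alternative test, called 7 genes higher (0.0339% of 20640) and 0 lower, with 1076 at an unadjusted p of 0.05. Without 5xFAD male 10 edgeR again called 0 genes, with a smallest adjusted p of 0.145.

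The 7 genes that DESeq2 called were also the first 7 by edgeR's p. In DESeq2's own order of adjusted p they were Tyrobp (0.00108), Gusb (0.00229), Ch25h (0.00229), Ide (0.00229), Fgfbp3 (0.00312), Cst7 (0.00351) and Olfml3 (0.0118). When single libraries were left out, DESeq2 called between 5 and 21 genes higher and between 0 and 4 lower. Both low counts, 5, came without knock-in male 8 and without knock-in male 9, and both high counts, 21, came without knock-in male 10 and without 5xFAD male 10. Olfml3 lost its call without knock-in male 7, 8 or 9 or 5xFAD male 8 (adjusted p 0.0695 to 0.224 in DESeq2). Cst7 lost it without knock-in male 8 or 9 or 5xFAD male 7 (0.0521 to 0.0674), and Ch25h got no adjusted p without 5xFAD male 9. Since the edgeR test called none of them, all 7 are given below as values.

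Tyrobp, the TREM2 adaptor, had the lowest p. It stood at 45.6, 41, 38.7, 45.8 and 32.8 CPM in knock-in males 6 to 10 and at 22.7, 24, 18.7, 22.6 and 28.7 CPM in 5xFAD males 6 to 10. Every knock-in male was above every control, and knock-in male 10 and 5xFAD male 10 were the nearest pair. The means were 40.8 ± 5.38 and 23.3 ± 3.62 CPM (SD, n = 5 each), a ratio of 1.75 and a log2 change of 0.81 (95% interval 0.52 to 1.09; adjusted p = 0.308 in edgeR). With single libraries left out the log2 change ran from 0.73 to 0.89.

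Trem2, the receptor, showed the same order of groups. Its levels were 63.7, 73.8, 71.4, 80.8 and 53.6 CPM in knock-in males 6 to 10 and 52.2, 41.5, 31.9, 47.7 and 44.9 CPM in 5xFAD males 6 to 10. The groups touched without overlap, at 53.6 CPM in knock-in male 10 and 52.2 CPM in 5xFAD male 6. This is a log2 difference of 0.65 (SE 0.14; adjusted p = 0.783 in edgeR and 0.0732 in DESeq2).

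Gusb encodes the lysosomal enzyme beta-glucuronidase. Its levels were 31.2, 36.8, 35.3, 39.8 and 30.9 CPM in knock-in males 6 to 10 and 22.9, 22.2, 21.8, 23.7 and 24.5 CPM in 5xFAD males 6 to 10. The controls lay close together and all below the knock-in males. Between the means lay a log2 change of 0.60 (95% interval 0.37 to 0.82; adjusted p = 0.308 in edgeR).

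Cst7 encodes cystatin F, an inhibitor of lysosomal cathepsins and a marker of disease-associated microglia. It stood at 41, 49.1, 48.4, 55.3 and 27.3 CPM in knock-in males 6 to 10 and at 21.1, 20.5, 18.7, 30.7 and 22.6 CPM in 5xFAD males 6 to 10. The groups overlapped through knock-in male 10, which lay below 5xFAD male 9. Its log2 change was 0.96 (SE 0.18; adjusted p = 0.319 in edgeR). Olfml3, a secreted protein used as a marker of homeostatic microglia, stood at 47.1, 50.1, 59.5, 55.7 and 37.4 CPM against 24.8, 34.3, 28.3, 35.3 and 29.5 CPM in the same order. Knock-in male 10 was again the lowest of its group and 5xFAD male 9 the highest control. The log2 change was 0.71 (SE 0.14; adjusted p = 0.327 in edgeR).

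Ch25h encodes cholesterol 25-hydroxylase, which makes an oxysterol and is expressed by activated microglia and macrophages. It was low in all males, at 2.96, 5.79, 4.16, 3.78 and 3.01 CPM in knock-in males 6 to 10 and 1.6, 1.38, 1.42, 1.66 and 1.45 CPM in 5xFAD males 6 to 10. The groups stood apart and the knock-in males spread more widely. The log2 change of 1.39 (95% interval 0.85 to 1.93; adjusted p = 0.308 in edgeR) was the largest of the 7.

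**Figure D1:**
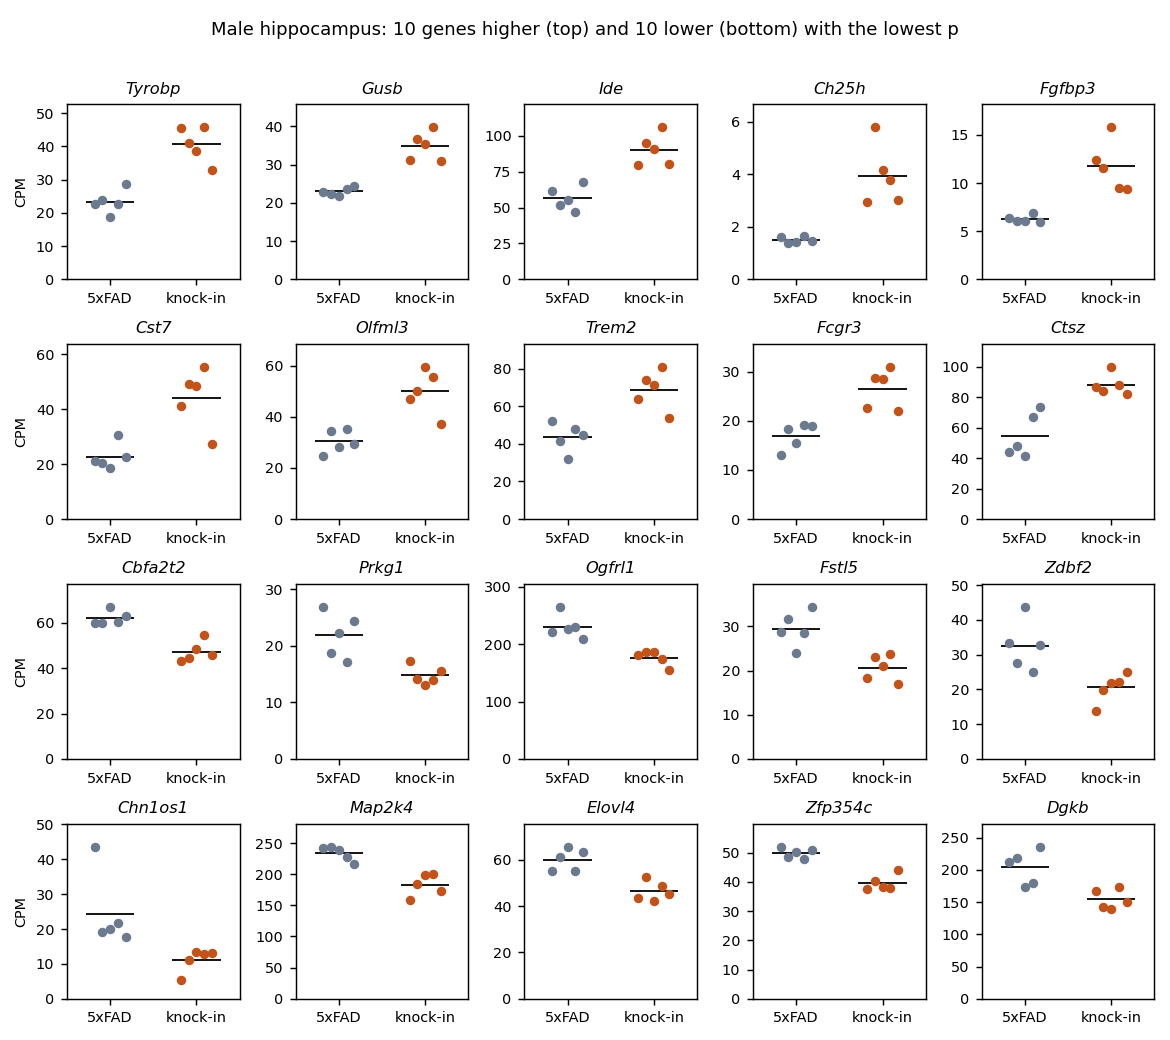
Expression in CPM (linear axes from 0) of the 10 genes with the lowest p among those higher and the 10 among those lower in knock-in males, each point 1 library and each bar the mean of 5 males. Tyrobp runs from 32.8 to 45.8 CPM in knock-in males and from 18.7 to 28.7 CPM in 5xFAD males, and no gene shown passed edgeR's adjusted test.

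Promoter sequence is shown for 4 of these genes, Gusb and Trem2 as microglial and lysosomal genes of the ranking and Ide and Fgfbp3 as neighbours on chromosome 19. RefSeq gives the window from 250 bases before to 50 after the start of a gene, on build GRCm38.p6, for 7 of 9 genes looked up, and Tyrobp and Clu had no entry. The windows are Gusb at chr5:130003000-130003299 on the minus strand, Trem2 at chr17:48346151-48346450 on the plus strand, Ide at chr19:37334495-37334794 on the minus strand and Fgfbp3 at chr19:36919550-36919849 on the minus strand. Capitals mark GAGGAA read on the other strand, a core bound by ETS factors such as PU.1, which microglia need.
Gusb: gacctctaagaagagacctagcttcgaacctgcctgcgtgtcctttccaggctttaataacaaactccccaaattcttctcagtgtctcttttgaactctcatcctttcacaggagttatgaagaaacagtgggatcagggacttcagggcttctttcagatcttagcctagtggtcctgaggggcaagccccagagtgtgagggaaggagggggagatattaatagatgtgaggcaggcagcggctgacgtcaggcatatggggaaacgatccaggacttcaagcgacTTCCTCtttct
Trem2: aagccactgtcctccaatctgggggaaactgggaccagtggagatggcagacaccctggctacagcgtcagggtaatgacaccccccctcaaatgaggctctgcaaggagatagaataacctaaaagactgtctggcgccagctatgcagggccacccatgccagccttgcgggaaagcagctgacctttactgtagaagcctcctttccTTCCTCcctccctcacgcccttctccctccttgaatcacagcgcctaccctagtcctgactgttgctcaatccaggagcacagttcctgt
Ide: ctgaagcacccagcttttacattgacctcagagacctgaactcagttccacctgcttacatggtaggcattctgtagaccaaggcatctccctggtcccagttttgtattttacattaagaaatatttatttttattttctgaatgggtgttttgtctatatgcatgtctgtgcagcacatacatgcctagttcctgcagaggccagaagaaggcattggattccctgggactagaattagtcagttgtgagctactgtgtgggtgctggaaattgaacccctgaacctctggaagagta
Fgfbp3: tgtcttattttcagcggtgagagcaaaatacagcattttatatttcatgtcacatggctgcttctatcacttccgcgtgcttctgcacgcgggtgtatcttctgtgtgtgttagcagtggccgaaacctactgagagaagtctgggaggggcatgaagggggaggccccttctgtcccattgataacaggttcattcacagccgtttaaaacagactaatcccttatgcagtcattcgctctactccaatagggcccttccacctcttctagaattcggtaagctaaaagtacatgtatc
The GAGGAA motif, searched on both strands, was found once in Gusb, once in Trem2 and in none of the Ide, Fgfbp3, Ch25h, Cst7 and Olfml3 windows. Of all 32851 promoter windows of this length, 28.3% hold it. CACGTG, the E-box read by the lysosomal regulator TFEB among others, was in 0 of the 7 windows and in 7.15% of all windows.

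Microglial genes made up much of the upper part of the ranking. Among the 12940 genes with a symbol, no predicted genes or pseudogenes, and a mean of at least 1 log2 CPM, 18 of the 20 with the lowest p and 35 of the 50 with the lowest p were higher in knock-in males. Of these 50, 20 belong to the lists of disease-associated microglia, homeostatic microglia, and Fc receptors, complement and phagocytosis, which together hold 69 (0.533%) of the 12940. The lists were chosen with earlier results of these data known, so these shares describe the ranking and test nothing. No member of any list passed the adjusted test. The lists are described by their medians and by counts at an unadjusted p of 0.05, with the share of all genes in brackets.

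Of 31 tested genes of the disease-associated microglia list, 26 lay above 0, and the median log2 change was 0.47 against 0.01 for all genes. An unadjusted p of 0.05 was met by 15 genes higher and 0 lower, where all genes gave 2.58% and 2.18%. The groups did not overlap at 6 genes (0.535% of all genes), Trem2, Tyrobp, Itgax, Axl, Ctsz and Gusb. Cathepsin Z (Ctsz), a lysosomal carboxypeptidase, stood at 88.3 ± 6.89 CPM against 54.9 ± 14.5 CPM (SD, n = 5 each), a log2 change of 0.69 (SE 0.15; adjusted p = 0.832 in edgeR). Cd68, a lysosomal membrane protein of phagocytes, stood at 25.4, 29.4, 35.4, 41.6 and 19.6 CPM in knock-in males 6 to 10 and 16.5, 22.1, 17.2, 17.2 and 17.4 CPM in 5xFAD males 6 to 10. The groups overlapped through knock-in male 10 and 5xFAD male 7, with a log2 change of 0.74 (SE 0.18; adjusted p = 0.954 in edgeR).

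The homeostatic list shared 0 genes with the disease-associated list and lay on the same side. Of its 21 tested genes, 19 lay above 0, 13 were higher (2.58% of all genes) and 0 lower (2.18%) at an unadjusted p of 0.05, and the median log2 change was 0.36. Olfml3 was its only gene without overlap (0.535% of all genes). Irf8, a transcription factor that microglia depend on, stood at 19.3 ± 4.22 against 12.5 ± 2.09 CPM (SD, n = 5 each), a log2 change of 0.62. Tmem119, a membrane protein specific to microglia in brain, stood at 32 ± 4.51 against 22.6 ± 3.94 CPM (SD, n = 5 each), a log2 change of 0.50. edgeR's adjusted p was 0.954 for both. Without 5xFAD male 10 there were 9 genes in place of 13, with a median of 0.34, where all genes then gave 3.46% higher and 2.71% lower.

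The mean of the disease-associated list was 5.88 ± 0.22 log2 CPM in knock-in males and 5.46 ± 0.11 in 5xFAD males (SD, n = 5 each). Knock-in males ran from 5.57 to 6.08 and 5xFAD males from 5.27 to 5.55, so that the lowest knock-in male, male 10, lay just above the highest control, male 6. By summed CPM the groups overlapped in this list, at 6400 to 8590 CPM in knock-in males and 5820 to 7820 CPM in 5xFAD males. The homeostatic list had means of 5.17, 5.37, 5.57, 5.63 and 5.1 in knock-in males 6 to 10 and 5.14, 5.07, 4.86, 5.02 and 5.1 in 5xFAD males 6 to 10. Knock-in male 9 was highest and knock-in male 10 lowest of the knock-in males in both lists.

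**Figure D2:**
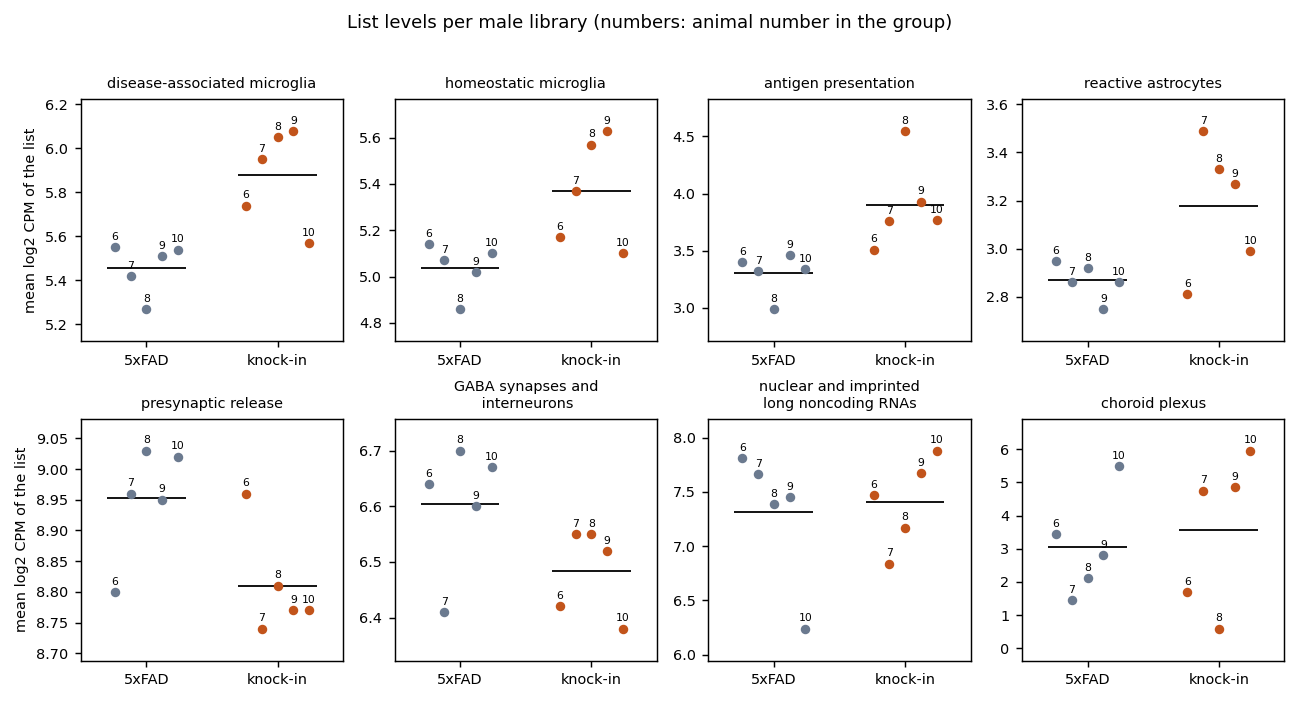
Mean log2 CPM of 8 gene lists in each male library (vertical axes, each with its own range), with the animal's number beside its point and a bar at the mean of 5 males. In the disease-associated microglia list the knock-in males lie between 5.57 and 6.08 and the 5xFAD males between 5.27 and 5.55, while the choroid plexus list scatters from 0.59 to 5.96 within the knock-in males.

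The phagocytic genes followed the same order. Of 27 tested genes for Fc receptors, complement and phagocytosis, 24 lay above 0, 13 were higher (2.58% of all genes) and 0 lower (2.18%) at an unadjusted p of 0.05, and 8 had groups apart, against 0.535% of all genes. These 8 were C1qa, C1qb, C1qc, Itgb2, Fcgr1, Fcgr2b, Fcgr3 and Axl. C1qb, a chain of the complement starter C1q, stood at 120 ± 13.1 against 80.9 ± 14.4 CPM (SD, n = 5 each), a log2 change of 0.57 (adjusted p = 0.954 in edgeR). C1qc, its partner chain, had the same log2 change, 0.57. Fcgr3, a low-affinity receptor for antibody, stood at 22.5, 28.6, 28.5, 30.9 and 21.9 CPM in knock-in males 6 to 10 and 13, 18.4, 15.4, 19.1 and 18.9 CPM in 5xFAD males 6 to 10. Its groups did not overlap, with a log2 change of 0.64 (SE 0.14; adjusted p = 0.832 in edgeR).

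Of 30 lysosomal proteases, glycosidases and membrane proteins, 26 lay above 0, 12 were higher (2.58% of all genes) and 0 lower (2.18%) at an unadjusted p of 0.05, and the median log2 change was 0.25. Ctsz and Gusb were the 2 genes without overlap (0.535% of all genes). Since 7 of these genes are also in the disease-associated list, the counts are not separate.

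Of the antigen presentation genes, 17 of 17 tested lay above 0, with a median of 0.51, and 12 were higher at an unadjusted p of 0.05 (2.58% of all genes). The groups did not overlap at 2 of them (0.535% of all genes), Cd74 and H2-DMb1, the latter a chain of the class II loading factor with a log2 change of 0.87. Cd74, the invariant chain that guards the groove of MHC class II, stood at 11.9, 14.4, 42.6, 15.5 and 13.3 CPM in knock-in males 6 to 10 and 9.71, 10.5, 6.67, 11 and 8.82 CPM in 5xFAD males 6 to 10. All knock-in males were above all controls, and knock-in male 8 stood far above the rest. Over the groups its log2 change was 1.07 (SE 0.33; adjusted p = 0.973 in edgeR), and without knock-in male 8 it was 0.56. H2-Ab1, a class II chain, had 9.43 CPM in that same animal and 2.56 to 5.35 CPM in the other knock-in males, against 1.37 to 3.32 CPM in 5xFAD males. Tap1, which carries peptides to class I, had 17.3 CPM there, 5.82 to 10.6 CPM in the other knock-in males and 3.73 to 6.76 CPM in 5xFAD males. The log2 changes were 1.19 and 0.87, both with an edgeR adjusted p of 0.973, and that of Tap1 was 0.57 without knock-in male 8.

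Of 26 tested genes of the type I interferon response, 24 lay above 0 and 6 were higher at an unadjusted p of 0.05 (2.58% of all genes), with a median of 0.43. Zbp1, a sensor of nucleic acids, was low in all males, at 1.29 ± 0.637 against 0.429 ± 0.282 CPM (SD, n = 5 each), a log2 change of 1.56 (SE 0.54). Of 21 toll-like receptor, cytokine and chemokine genes, 18 lay above 0 and 4 were higher at that p (2.58%), with a median of 0.40 that was 0.25 without knock-in male 9. Cxcl10, an interferon-induced chemokine, stood at 1.43, 9.02, 5.68, 2.81 and 2.96 CPM in knock-in males 6 to 10 and 2.13, 2.15, 1.21, 1.11 and 0.914 CPM in 5xFAD males 6 to 10. The groups overlapped and knock-in males 7 and 8 stood high. Its log2 change was 1.54 (SE 0.45; adjusted p = 0.973 in edgeR). Il1b, Il6, Tnf, Ccl2 and Ccl5 were not tested here.

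Of 24 tested genes of the reactive astrocyte list, 22 lay above 0 and 5 were higher at an unadjusted p of 0.05 (2.58% of all genes), with a median of 0.34 and 0 genes whose groups stood apart. Without knock-in male 7 the median was 0.17. Gfap, the intermediate filament of reactive astrocytes, stood at 1040, 1080, 1220, 1450 and 976 CPM in knock-in males 6 to 10 and 694, 860, 612, 969 and 979 CPM in 5xFAD males 6 to 10. The groups overlapped only between knock-in male 10 and 5xFAD male 10. For Gfap this gave a log2 change of 0.49 (SE 0.15; adjusted p = 0.973 in edgeR). The homeostatic astrocyte list had a median of 0.11 over 20 genes, with 17 above 0, and 0 higher and 0 lower at an unadjusted p of 0.05. Aldh1l1, a folate enzyme used as an astrocyte marker, stood at 53.2 ± 5.21 against 44.9 ± 8.42 CPM (SD, n = 5 each).

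Oligodendrocyte and myelin genes had a median of 0.15 over 20 genes, 18 of them above 0. The 2 genes higher at an unadjusted p of 0.05 (2.58% of all genes) were Opalin at 0.39 and Olig2 at 0.40. Without knock-in male 8 Opalin and Olig2 both had 0.24 and the median was 0.07, and without 5xFAD male 7 the median was 0.23. The precursor list had a median of 0.04 over 8 genes.

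Among the neuronal lists, those of presynaptic release, GABA synapses and immediate early genes had medians below -0.1, while glutamate receptors had -0.05 and hippocampal subfields 0.02. Of 25 presynaptic genes, 1 lay above 0 and 3 were lower at an unadjusted p of 0.05, where all genes gave 2.18%, and the median log2 change was -0.14. The list's mean ran from 8.74 to 8.96 log2 CPM in knock-in males and from 8.80 to 9.03 in 5xFAD males, so the groups overlapped. Snap25, a core protein of vesicle fusion, stood at 1840, 1840, 1830, 1630 and 1460 CPM in knock-in males 6 to 10 and 2130, 2120, 2380, 1930 and 2030 CPM in 5xFAD males 6 to 10. Every knock-in male was below every control, which held for 1 of the 25 genes (0.53% of all genes). The log2 change was -0.30 (95% interval -0.53 to -0.07; adjusted p = 0.973 in edgeR). Sv2b and Syt1, a vesicle glycoprotein and the calcium sensor of release, had log2 changes of -0.26 and -0.24 and overlapping groups.

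Of 21 genes of GABA synapses and interneurons, 5 lay above 0 and 5 were lower at an unadjusted p of 0.05 (2.18% of all genes), with a median of -0.13 that was -0.06 without 5xFAD male 8. Gad2, which makes GABA, ran from 103 to 154 CPM in knock-in males and stood at 225, 159, 159, 137 and 219 CPM in 5xFAD males 6 to 10. The groups overlapped through 5xFAD male 9, and 5xFAD males 6 and 10 stood high. Its log2 change was -0.46 (SE 0.15). Slc32a1, the vesicular GABA transporter, had -0.28, and Calb2, which encodes calretinin of some interneurons, had -0.94 and also belongs to the thalamus list. edgeR's adjusted p was 0.973 for all 3. The 5 genes above 0 were other interneuron markers, Pvalb at 0.22, Reln at 0.20, Sst at 0.14, Cck at 0.13 and Npy at 0.12.

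Of 25 glutamate receptor and scaffold genes, 8 lay above 0 and 3 were lower at that p (2.18%), or 1 without 5xFAD male 10 (2.71%), with a median of -0.05. Nlgn1, an adhesion protein of excitatory synapses, stood at 54.6 to 61.4 CPM in knock-in males and 65.2 to 85.5 CPM in 5xFAD males. It was the only gene of the list without overlap (0.53% of all genes), with a log2 change of -0.32 (adjusted p = 0.973 in edgeR). Of 18 immediate early genes, which neurons switch on with activity, 2 lay above 0, with a median of -0.23 that ran from -0.41 without knock-in male 6 to -0.06 without 5xFAD male 8. Nr4a3 had -0.42 and Fosb had -0.53, both with overlapping groups.

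The genes with the lowest p among those lower were mostly outside the lists. Cbfa2t2, a transcriptional corepressor, stood at 43.1, 44.4, 48.6, 54.5 and 45.6 CPM in knock-in males 6 to 10 and 59.7, 59.9, 67, 60.2 and 63 CPM in 5xFAD males 6 to 10. The groups stood apart, with a log2 change of -0.39 (SE 0.10; adjusted p = 0.954 in edgeR). Ogfrl1 stood at 181, 187, 187, 174 and 155 against 222, 265, 226, 230 and 209 CPM, also apart, with a log2 change of -0.38 (SE 0.10). The others were Prkg1, a cyclic GMP-dependent kinase, at -0.57, Fstl5 at -0.51, Zdbf2, an imprinted zinc finger gene, at -0.66, Map2k4, a kinase upstream of JNK, at -0.36, Elovl4, an elongase of very long fatty acids, at -0.37, Zfp354c at -0.33 and Dgkb, a diacylglycerol kinase, at -0.40. Among these 7, Prkg1 and Zdbf2 had overlapping groups and the others did not. Chn1os1, an antisense RNA at the Chn1 locus, had -1.12, and without knowledge of the strand its reads cannot be told from those of its partner. In females, fitted with the males in 1 model of 4 groups, Zdbf2 had -0.24 and all the other genes of this paragraph lay above 0. Ogfrl1 had 0.40 in females (adjusted p = 0.0307 in edgeR). Of these genes only Ogfrl1 passed the test of a male against female difference given below (adjusted p = 0.0499 in edgeR).

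**Figure D3:**
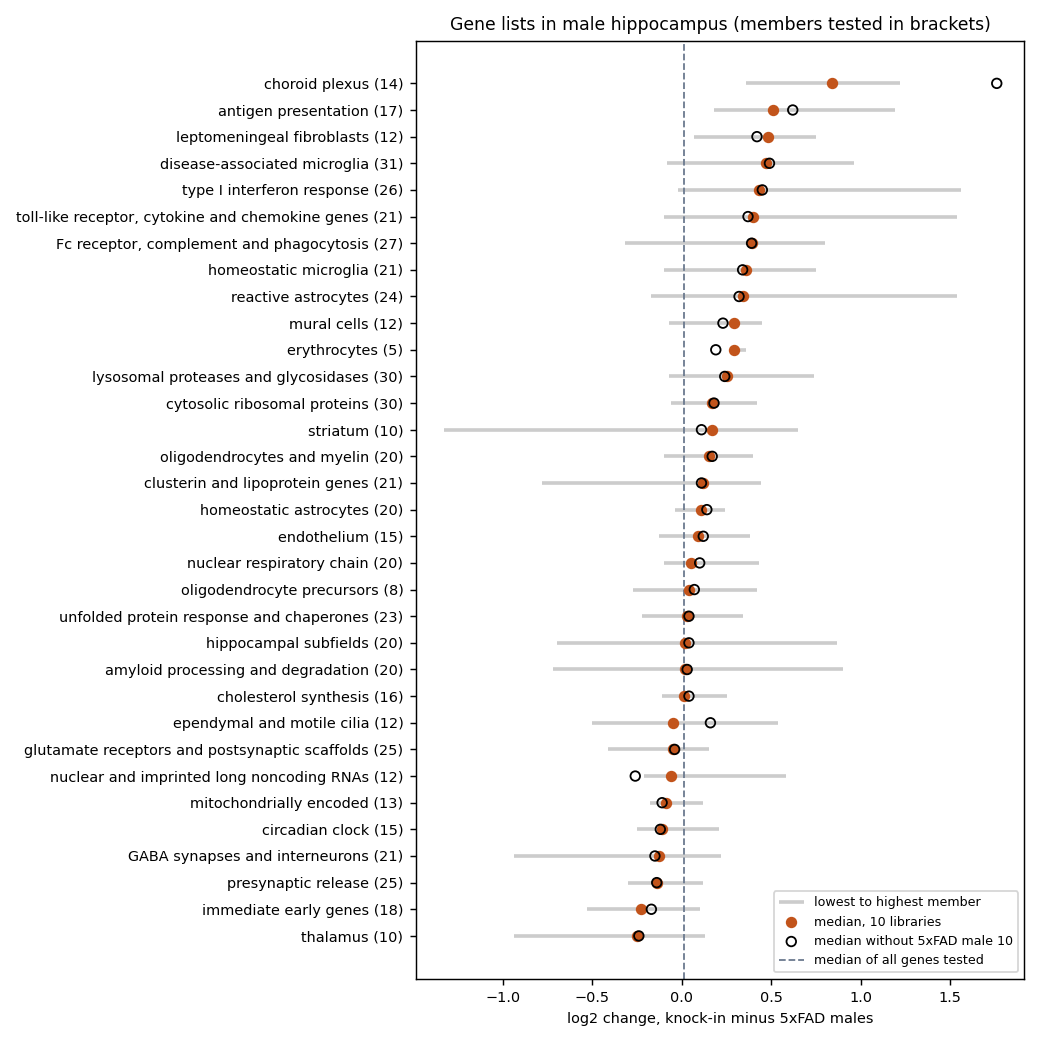
Median log2 change between knock-in and 5xFAD males (horizontal axis) for 33 gene lists, with filled points for 10 libraries, open circles without 5xFAD male 10 and grey lines from the lowest to the highest member. The immune lists lie between 0.36 and 0.51, the presynaptic list at -0.14, and the choroid plexus median goes from 0.84 to 1.76 without that library.

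Among genes of amyloid processing and degradation, 11 of 20 lay above 0, with a median of 0.02. Ide, the insulin-degrading enzyme, which also cuts amyloid beta, was the only gene of the list without overlap (0.535% of all genes). It stood at 79.8, 94.8, 90.6, 106 and 80.4 CPM in knock-in males 6 to 10 and 61.3, 52.1, 55.2, 47.2 and 67.8 CPM in 5xFAD males 6 to 10. The means were 90.2 ± 10.8 and 56.7 ± 8.04 CPM (SD, n = 5 each), a ratio of 1.59 and a log2 change of 0.67 (95% interval 0.41 to 0.93; adjusted p = 0.308 in edgeR). Bace2, a protease related to beta-secretase, and Aplp2, a relative of the amyloid precursor, were lower at an unadjusted p of 0.05 (2.18% of all genes), with log2 changes of -0.72 and -0.21. Without 5xFAD male 10 neither met it, at an edgeR p of 0.0505 and 0.0549.

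Fgfbp3, a carrier of fibroblast growth factors, lies near Ide on chromosome 19. It stood at 12.4, 11.6, 15.8, 9.46 and 9.43 CPM in knock-in males 6 to 10 and 6.4, 6.1, 6.1, 6.91 and 5.92 CPM in 5xFAD males 6 to 10. The groups stood apart, with a log2 change of 0.90 (95% interval 0.54 to 1.27; adjusted p = 0.319 in edgeR). The order of genes in GENCODE M21 puts 3 tested genes between Fgfbp3 and Ide, chosen after the values of both were seen. Their log2 changes were 0.26 for Btaf1, -0.24 for Cpeb3 and -0.09 for March5. Beyond the pair, Tnks2 had -0.19 and Kif11 had 0.09. All 5 had overlapping groups. In the females of the same genotypes, fitted together with the males in 1 model of 4 groups, the log2 change of Ide was 1.07 (adjusted p = 0.00984 in edgeR) and that of Fgfbp3 was 0.46 (adjusted p = 0.172). As background, Ide and Fgfbp3 are known to vary in copy number among C57BL/6J mice; copy number was not measured here and the strain is not given in the labels. Ch25h is on the same chromosome, with 21 tested genes between it and Fgfbp3.

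**Figure D4:**
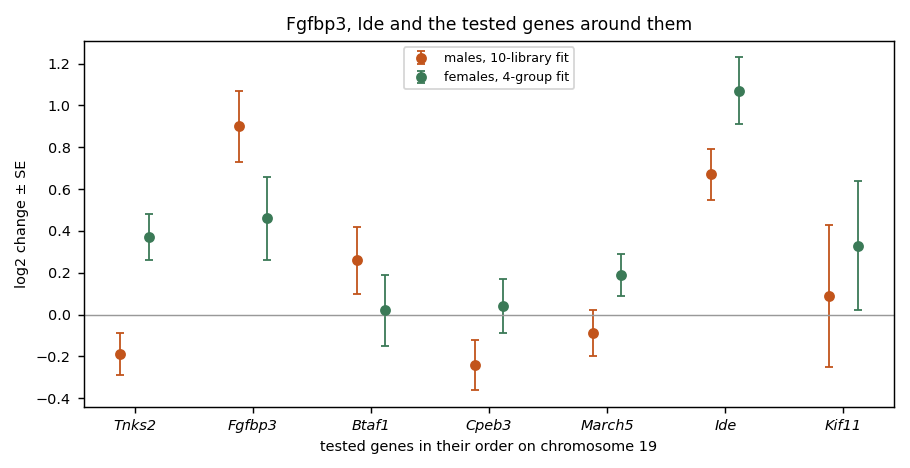
Log2 change with the knock-in (vertical axis, points with SE) for Fgfbp3, Ide and the tested genes next to them in their order on chromosome 19, in males and in females. In males Fgfbp3 at 0.90 and Ide at 0.67 stand above the 3 genes between them, which lie from -0.24 to 0.26.

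The clusterin and lipoprotein list had 15 of 21 genes above 0, a median of 0.12, and 2 genes higher at an unadjusted p of 0.05 (2.58% of all genes). The median was 0.03 without knock-in male 9 and 0.06 without 5xFAD male 6. Npc2, which moves cholesterol out of lysosomes, stood at 96.9, 99, 96.2, 94.4 and 83.6 CPM in knock-in males 6 to 10 and 60.2, 59.3, 53.7, 82.6 and 90 CPM in 5xFAD males 6 to 10. The groups overlapped through knock-in male 10 and 5xFAD male 10, with a log2 change of 0.44 (SE 0.14; adjusted p = 0.973 in edgeR). Lrp1, an endocytic receptor for lipoproteins, had a log2 change of 0.28.

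Markers of tissue around the hippocampus varied between animals of both groups. The summed level of 14 choroid plexus genes ran from 240 to 5080 CPM in knock-in males and from 260 to 4620 CPM in 5xFAD males, and 0 of the 14 genes met an unadjusted p of 0.05 although 14 of 14 lay above 0. Without 5xFAD male 10, the control with the highest level, the median moved from 0.84 to 1.76 and 3 genes were higher at that p (3.46%), and without knock-in male 10 it was 0.09. It was 0.52 without 5xFAD male 7. The mean of the choroid plexus list was 1.69, 4.75, 0.59, 4.87 and 5.96 log2 CPM in knock-in males 6 to 10. In 5xFAD males 6 to 10 it was 3.43, 1.46, 2.11, 2.81 and 5.5 log2 CPM. The leptomeningeal list had a median of 0.48, or 0.13 without knock-in male 7, with 12 of 12 genes above 0 and 0 at an unadjusted p of 0.05. Its summed level reached 418 CPM in knock-in males and 298 CPM in 5xFAD males.

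Of 12 mural cell genes, 11 lay above 0, and Pdgfrb and Notch3 had groups apart (0.535% of all genes). The median of the mural list was 0.29, or 0.14 without knock-in male 7. Erythrocytes had 0.29, or 0.19 without 5xFAD male 10, and endothelium 0.09. Ependymal cells had -0.05, a sign that turned to 0.16 without 5xFAD male 10. The striatal list had 0.17, with groups apart at 1 of 10 genes, Rgs9 (0.535% of all genes). Its median ran from -0.08 without knock-in male 7 to 0.33 without 5xFAD male 8. The thalamus list had -0.25, or -0.24 without 5xFAD male 10, with 2 of 10 genes above 0. One gene, Calb2, was lower at an unadjusted p of 0.05 (2.18% of all genes). The mean of the thalamus list was 3.26 ± 0.1 log2 CPM in knock-in males and 3.54 ± 0.17 in 5xFAD males (SD, n = 5 each). Its ranges, 3.18 to 3.42 and 3.36 to 3.74, overlapped. Hippocampal subfields had 0.02.

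Nuclear noncoding RNAs had a median of -0.06, or -0.26 without 5xFAD male 10. Cytosolic ribosomal proteins had 0.17, with 29 of 30 genes above 0. Of these 30 genes, 1 was higher at an unadjusted p of 0.05 (2.58% of all genes) and 6 without 5xFAD male 10 (3.46%). Mitochondrially encoded genes had -0.09, nuclear respiratory chain genes 0.05, chaperones 0.03, cholesterol synthesis 0.01 and clock genes -0.11. Without 5xFAD male 10 the nuclear respiratory chain had 0.10 and cholesterol synthesis 0.04. The part of these markers in the microglial and neuronal values was not tested.

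Whether the male effect differed from the female effect was tested as a genotype by sex interaction over all 19 libraries. In that fit 56 of 18204 genes passed (0.308%), 53 with the male effect above the female effect (0.291%) and 3 below (0.0165%). Their adjusted p was 0.0499 for all 56, at the edge of the threshold. An unadjusted interaction p under 0.05 was met by 3225 of the 18204 genes, where the male fit had 808 of 16995. The count past the adjusted threshold was 0 with limma-voom and with DESeq2's size factors, 776 with the DESeq2 test and 402 with library size alone. It was 0 without any 1 of knock-in males 6, 9 and 10 and 5xFAD males 8, 9 and 10. It was 489 without knock-in male 7, 120 without knock-in male 8, 190 without 5xFAD male 6 and 138 without 5xFAD male 7. The list of nuclear noncoding RNAs had a median of -1.46 in females and -0.06 in males, and its part in the interaction was not tested.

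All 53 genes with a male effect above the female effect had a female change below 0. Over the 56 genes the median change was 0.25 in males and -0.97 in females. Of the 56, 14 had an unadjusted male p under 0.05, where 4.75% of all genes met it in the 10-library fit. The interaction contains the male change, so this count is no separate sign of a male effect. The largest were Tmc4 at a male minus female log2 difference of 2.32, Shcbp1l at 2.20, Snhg20, a long noncoding RNA, at 1.98, Rnf207 at 1.97 and Lrrc45 at 1.84. In the other direction were Ogfrl1 at -0.77, Lin7c, a scaffold protein of cell junctions, at -0.69 and Gnai1, an inhibitory G protein subunit, at -0.65. In the 10-library fit the male 95% interval included 0 for Tmc4 (-0.22 to 1.3), Shcbp1l (-0.32 to 1.21) and Lrrc45 (-0.09 to 0.86). Mean levels, knock-in against 5xFAD males, were low for Tmc4 (4.28 against 2.95 CPM), Shcbp1l (1.26 against 0.922 CPM) and Rnf207 (4.03 against 2.42 CPM). For Trem2 and the 7 genes that DESeq2 called in males, the interaction did not pass. It was 0.73 for Tyrobp (95% interval 0.28 to 1.19; adjusted p = 0.0955 in edgeR), with a female log2 change of 0.07 (SE 0.16). It was 0.41 for Trem2 (interval -0.05 to 0.87), 0.27 for Gusb (interval -0.02 to 0.57), 0.47 for Cst7 (interval -0.19 to 1.12) and 0.19 for Olfml3 (interval -0.24 to 0.63). It was -0.40 for Ide (interval -0.86 to 0.06) and 0.45 for Fgfbp3 (interval -0.12 to 1.02). For Ch25h it was 0.85, with an interval clear of 0 (0.05 to 1.65, adjusted p = 0.249 in edgeR). The median female change of the disease-associated list was 0.36, of the homeostatic list 0.44, of antigen presentation 0.29 and of the type I interferon response 0.01. Lists of other kinds were also above 0 in females, with 0.26 for homeostatic astrocytes, 0.30 for chaperones and 0.52 for mitochondrially encoded genes. Below 0 were immediate early genes at -0.22, glutamate receptors at -0.03 and the nuclear noncoding RNAs. The female median of all genes is not given here.

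**Figure D5:**
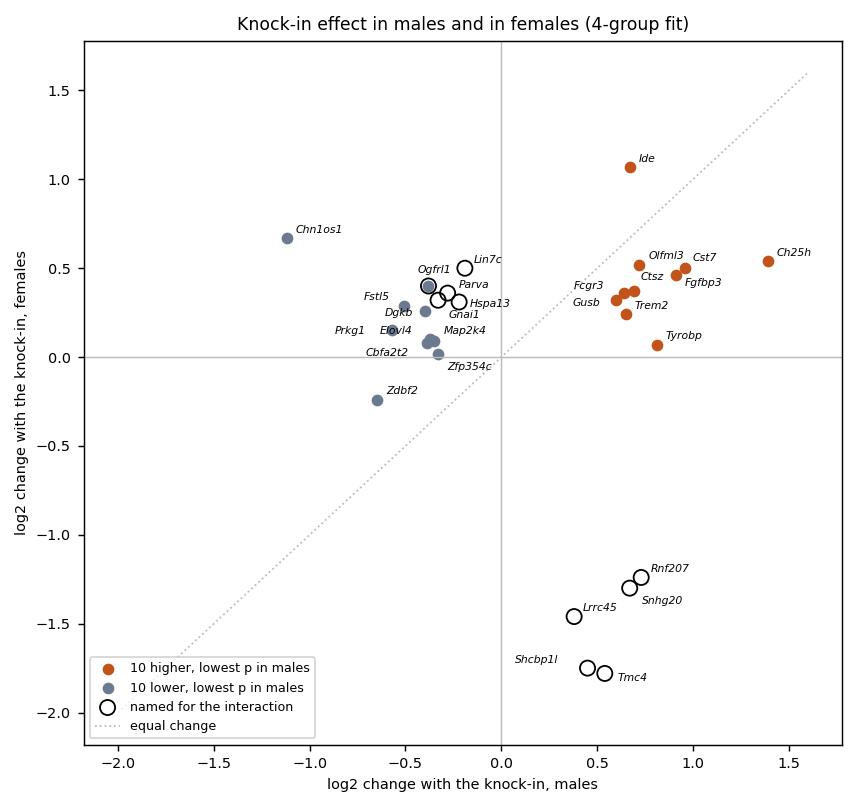
Log2 change with the knock-in in males (horizontal axis) and in females (vertical axis) from 1 model of 4 groups, for the 20 genes with the lowest p in males and the genes named for the interaction, with a dotted line at equal change. Ide lies at 0.67 in males and 1.07 in females and Tyrobp at 0.81 and 0.07. The genes with the largest male minus female differences lie in the lower right, above 0 in males and below 0 in females. For Tmc4, Shcbp1l and Lrrc45 among them, the male 95% interval of the 10-library fit includes 0.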

How the data were processed

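Total RNA of hippocampus was sequenced by the authors with paired-end reads on NovaSeq and HiSeq instruments, per the labels' protocols, with no statement of the instrument of each library or of strand. The authors deposited counts per gene as whole numbers. The tools named without version in the submitters' processing notes are Salmon, FastQC, Seurat and DESeq2, and the build is mm39. A second table deposited by the authors holds normalized counts, a signal whose scaling differs from gene to gene, which served as an alternative (log2 of value plus 1, limma). A deposited table of variance-stabilized values was not used. Columns of no sample numbered 0. Of 20655 gene IDs, GENCODE M21 (GRCm38) named 20023 (96.9%).

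The 10 male libraries were fitted alone with edgeR 4.0.16 in R 4.3.3 (TMM, filterByExpr with at least 10 counts, robust quasi-likelihood F-test, Benjamini-Hochberg over 16995 genes, threshold 0.05). The interaction used 1 mean for each of 4 groups over 19 libraries. DESeq2 1.42.0, limma-voom (limma 3.58.1), other scalings and filters, a noncoding RNA covariate, a block for the title numbers and the omission of each male library were alternatives. The omissions under DESeq2 were added after seeing the data. The fits were tested on simulated data. Log2 CPM had a prior count of 2.

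Members and gene lists were chosen with earlier results of these data known. The genes named were Clu, App and Thy1, the 10 genes of lowest p in each direction since none passed (at a mean of at least 1 log2 CPM, without predicted genes), up to 3 genes of lowest p per list, the 5 largest interactions in each direction, and Ide, Gusb, Olfml3, Cd68 and Gfap. The rule also took the 5 largest changes in each direction without 5xFAD male 10, where none passed. Further genes that the rule took in are not reported here. Other genes were chosen after their values were seen. Within groups, 20 of 20 library pairs differed beyond sampling noise (chi-square per gene 18.1 to 80.5, where 1 is noise).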

Additional observations from a re-analysis of the deposited data

Results flagged for a closer look

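Single libraries were flagged within their group for 6 gene levels by Dixon's ratio, the gap to the next library over the group's range (critical value 0.71). A flagged gap can therefore be small where the group is tight, as for Npc2. Cd68 was highest in 5xFAD male 7, at 4.47 log2 CPM with the next control at 4.13. Chn1os1 was lowest in knock-in male 6, at 2.43 with the next at 3.5, and highest in 5xFAD male 6, at 5.45 with the next at 4.46. Ccl6, a chemokine, was lowest in 5xFAD male 8, at 2.92 with the next at 3.43. Npc2 was lowest in knock-in male 10, at 6.39 with the next at 6.56. Cd74 was highest in knock-in male 8, at 5.42 with the next at 3.97. The mean of the nuclear noncoding RNAs was lowest in 5xFAD male 10, at 6.24 with the next at 7.39. These are 7 of 180 groups examined (73 genes and 17 lists in 2 groups), a count not above the 1 in 20 or so that chance alone gives. The genes and lists share libraries and members, so this count cannot decide whether any single flag is due to chance.

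The interaction test in edgeR called a sex difference in the knock-in effect at 8 named genes, each at an adjusted p of 0.0499. These calls were lost with limma-voom and with DESeq2's size factors. They were also lost when knock-in male 6, 9 or 10, or control male 8, 9 or 10, was left out. They held with the DESeq2 test, with library size alone, and without knock-in male 7 or 8 or control male 6 or 7. The male minus female log2 difference was 2.32 for Tmc4, 2.20 for Shcbp1l, 1.98 for Snhg20, 1.97 for Rnf207, 1.84 for Lrrc45, -0.77 for Ogfrl1, -0.69 for Lin7c and -0.65 for Gnai1.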

How the results depend on the processing

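The count of genes was 0 higher in 19 of 20 alternatives and 0 lower in all 20, with 7 higher under DESeq2. Without single libraries edgeR gave 0 genes in either direction, with 353 to 600 higher and 249 to 533 lower at an unadjusted p of 0.05. The change of Clu took both signs: it was 0.01 with library size only and ran from -0.08 to 0.06 without single libraries. App was -0.01 with the deposited normalized values, and -0.05, -0.02 and -0.03 without knock-in male 9, 5xFAD male 6 and 5xFAD male 7. For the other named genes the direction held in every alternative. The interaction count was 776 with DESeq2, 0 with limma-voom, 402 with library size only, 0 with DESeq2-type size factors and 0 to 489 without single libraries. The causes were not tested. Title numbers did not pair the males: same-number pairs correlated above 0.1 in 2 of 5 cases, and 1 of 5 knock-in males correlated best with its own number. With the title number as replicate block 0 genes were called, with 294 higher and 194 lower at an unadjusted p of 0.05. With 5 males a group, the interval of Clu, from -0.32 to 0.27, bounds what could be seen. Genes at a few CPM, such as Zbp1 and Cxcl10, rest on few reads.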
